A study of Mus musculus with 92 samples.

Results

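The Serpina3 cluster is a run of serpin genes on mouse chromosome 12. Its members Serpina3f, Serpina3g, Serpina3i and Serpina3n are described here in every group of cells of the study, 4 of 29956 named genes in the deposited expression table and 4 of the 14 Serpina3 genes it lists. The members were chosen by measured values: Serpina3f was selected on its high level in ER-Hoxb8 microglia-like cells against the other cells, and Serpina3g, Serpina3i and Serpina3n were named with it as further genes of the cluster. The values of ER-Hoxb8 microglia-like cells are therefore given as a description, with no test. Tests are given for the other groups of cells.

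Serpins are protease inhibitors that offer a reactive loop to a protease, which cleaves the loop and is then held in an inactive complex. Mice carry a cluster of Serpina3 genes where humans carry a single SERPINA3 gene, which encodes alpha-1-antichymotrypsin, and the mouse copies differ in their reactive loops and so in the proteases they can bind. Serpina3g (also called Spi2A) is an intracellular inhibitor of lysosomal cathepsins that is known from interferon-treated macrophages and from T cells, while Serpina3n is a secreted inhibitor of granzyme B and neutrophil elastase that is known as an acute phase gene and as a marker of reactive astrocytes.

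The study made macrophages and microglia-like cells from mouse bone marrow and from ER-Hoxb8 progenitors, which are marrow progenitors held in an immature state by an estrogen-regulated Hoxb8 and released from it when estradiol is withdrawn. It asked how these cells compare with microglia, the resident macrophages of the brain, and then used the ER-Hoxb8 cells to study loss of Adar, the RNA-editing enzyme ADAR1. RNA was sequenced in 92 libraries of 25 groups, from FVB mice or from lines made from them. The labels place the ER-Hoxb8 progenitors, day 4 cells and macrophages, and the cells with guides, in lines from Cas9 mice, and give the genotype of the ER-Hoxb8 microglia-like cells as WT.

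Without injection into brain, the groups were progenitors and monocytes isolated from WT bone marrow (BM), macrophages grown from WT marrow for 7 days with M-CSF (bone marrow-derived, BMD), and, from Cas9 het ER-Hoxb8 lines, progenitors kept in beta-estradiol and GM-CSF, cells after 4 days of differentiation and macrophages after 7 days, with 3 libraries each. From brain came 6 libraries of BMD microglia-like cells (BMD MLCs) and 6 of ER-Hoxb8 MLCs, which were injected into the brains of newborn Csf1r-/- hosts, which lack microglia, and sorted back out as CD45+ CD11b+ cells. A further 9 libraries were microglia of uninjected WT mice. Column names place ER-Hoxb8 MLC replicates 1 to 3 in a series called GFPHox and replicates 4 to 6 in a series called WTHox. Cas9 het ER-Hoxb8 cells transduced with a non-targeting control guide (NTC) or with Adar guide sgRNA 1 gave 3 libraries each of progenitors and of macrophages after 7 days, and sgRNA 2 gave 3 libraries of progenitors and 5 of macrophages. Macrophages of NTC and of Adar1 KO sgRNA 1 were also grown for 7 days with the JAK inhibitor baricitinib at 0, 0.0006, 0.016, 0.4 or 10 uM as the titles give the doses, in 33 libraries of 3 or 4 a group. The treatment protocol writes some of these doses otherwise, so doses are used here only as names.

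Values are log2 CPM (counts per 1000000 counts of a library) as the authors deposited them, and a gene with no counts sits at a lowest value that is shared by all libraries normalized together. There were 6 such sets: 12 libraries of marrow progenitors, monocytes, ER-Hoxb8 progenitors and day 4 cells (lowest value -4.34); 27 libraries of cells from brain and in vitro macrophages (-3.62); 11 of NTC and sgRNA 1 cells (-3.43); 1 NTC macrophage library, replicate 2, alone (-3.09); 8 of sgRNA 2 cells (-3.56); and 33 with baricitinib (-2.78). Levels are compared only within a set. Depth, in units of 1000000 counts a library, ran from 33.2 to 52.7 in the first set, 9.9 to 36.1 in the second, 22.4 to 34.3 in the NTC and sgRNA 1 set, 17.2 to 28.6 in the sgRNA 2 set and 6.2 to 32.7 with baricitinib. A value at or below 3 counts in its library is not told from no expression, and this limit covers counting error only.

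A gene was tested in a set if it passed 1 CPM in at least 3 libraries, or in at least 6 in the set with the brain cells, and it was called at an adjusted limma p below 0.05 when its log2 fold change (log2FC) reached 2 up or down. Serpina3f and Serpina3g, 2 of the 4 members, passed among marrow and ER-Hoxb8 progenitors and again in the NTC and sgRNA 1 set. In the set with the brain cells Serpina3f, Serpina3g and Serpina3i passed, and with the 6 ER-Hoxb8 MLC libraries left out only Serpina3g did, so Serpina3f and Serpina3i entered that test through the group where they are high. With sgRNA 2 only Serpina3g passed, and with baricitinib 0 of 4 did. Serpina3n passed in no set and is described by its values alone. The labels do not say for every group that replicates were separate cultures or animals. The paper describes biological replicates for the marrow cells, the ER-Hoxb8 cells without guides and the cells from brain. P-values measure only the spread between these samples.

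Several libraries stood apart from others of their group. The 3 ER-Hoxb8 progenitor libraries differed widely: in replicates 1, 2 and 3 the macrophage genes read 7.75, 10.45 and 3.10 for Csf1r and 7.20, 9.51 and 8.36 for Emr1, and the progenitor genes 5.03, -0.76 and 1.67 for Kit, 4.40, 2.77 and 11.20 for Mpo and -1.42, 4.21 and 0.38 for Cd34. Replicate 2 was thus the highest for both macrophage genes and the lowest for Kit and Mpo, yet the highest for Cd34. The library labelled Adar1 KO with 0.4 uM baricitinib, replicate 2, had the interferon-stimulated gene Ifit1 at 11.78, against 0.54 and 3.03 in replicates 1 and 3. Microglia replicate 8 had the highest summed level of astrocyte markers in its group, 729.8 CPM against a group median of 291 CPM, and the lowest Adar value, 0.87. In ER-Hoxb8 MLCs, markers of other cells varied between libraries, and their values are given beside the members. Whether any library that stood apart was exchanged with another or differed in state was not tested.

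The members lie next to or near each other on chromosome 12, in the order Serpina3f, Serpina3g, Serpina3h, Serpina3i, with 4 more Serpina3 genes between Serpina3i and Serpina3n. Because the levels of Serpina3f, Serpina3g and Serpina3i moved together, the 250 bases before the first annotated start of each member are shown. Serpina3n followed them less closely in the set of marrow and ER-Hoxb8 progenitors (Pearson's r from 0.421 to 0.682 over 12 libraries). The windows are on the plus strand of GRCm38.p6, from RefSeq, which held all 4: chr12:104214294-104214543, chr12:104235897-104236146, chr12:104262872-104263121 and chr12:104406458-104406707. Capitals mark the letters TTCNNNGAA, the form of the gamma-activated site known from promoters of interferon-gamma response genes, searched on both strands (the motif reads the same on each).
Serpina3f: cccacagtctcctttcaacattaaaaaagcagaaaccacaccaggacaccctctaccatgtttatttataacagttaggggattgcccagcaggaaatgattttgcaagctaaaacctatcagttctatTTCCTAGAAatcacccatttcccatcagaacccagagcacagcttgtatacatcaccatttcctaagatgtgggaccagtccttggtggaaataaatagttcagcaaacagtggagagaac
Serpina3g: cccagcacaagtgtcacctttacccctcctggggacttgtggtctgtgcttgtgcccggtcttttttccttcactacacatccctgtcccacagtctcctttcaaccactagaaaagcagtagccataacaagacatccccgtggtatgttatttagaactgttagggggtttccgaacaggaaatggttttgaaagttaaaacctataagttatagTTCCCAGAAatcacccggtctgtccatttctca
Serpina3i: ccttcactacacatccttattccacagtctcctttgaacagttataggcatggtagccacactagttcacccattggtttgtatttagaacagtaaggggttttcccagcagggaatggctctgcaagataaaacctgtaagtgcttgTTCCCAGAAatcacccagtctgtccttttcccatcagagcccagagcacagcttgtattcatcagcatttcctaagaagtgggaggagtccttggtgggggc
Serpina3n: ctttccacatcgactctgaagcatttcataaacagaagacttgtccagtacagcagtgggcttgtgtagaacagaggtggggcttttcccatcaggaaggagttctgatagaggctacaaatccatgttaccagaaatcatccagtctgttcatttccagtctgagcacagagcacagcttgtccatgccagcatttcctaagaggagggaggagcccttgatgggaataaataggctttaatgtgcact
TTCNNNGAA was found in 3 of 4 members, at TTCCTAGAA beginning 121 bases before the first of 2 annotated starts of Serpina3f, at TTCCCAGAA 33 bases before the start of Serpina3g and at TTCCCAGAA 102 bases before that of Serpina3i. The window of Serpina3n did not hold these letters. Of 32851 promoter windows of this length, 7.02% held TTCNNNGAA. The core of the interferon-stimulated response element, GAAA, any 2 bases and GAAA, was in 0 of 4 members and 2.98% of windows on either strand, and TTGCNNAA, a form bound by C/EBP proteins, was in 1 of 4 (Serpina3f) and 9.56%. A match is a description, not a site or a cause. Over their best local alignments, the windows of Serpina3f and Serpina3g were 81% identical over 147 columns, Serpina3f and Serpina3i 77.6% over 228, and Serpina3f and Serpina3n 63.4% over 238, so the shared letters stand in shared sequence and the members are not independent cases.

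The copies are alike in their transcripts too, and reads can be split between them. Of all 31-base words in its annotated transcripts (GENCODE M21), Serpina3f shared 27.3% with another Serpina3 gene, Serpina3g 28.4%, Serpina3i 27.3% and Serpina3n 21.6%, and none was found outside the cluster. The authors' pseudoalignment assigns shared reads by an estimate, so small values of one copy in cells where another is high are uncertain, Serpina3n and the pseudogenes in ER-Hoxb8 MLCs above all.

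**Figure D1:**
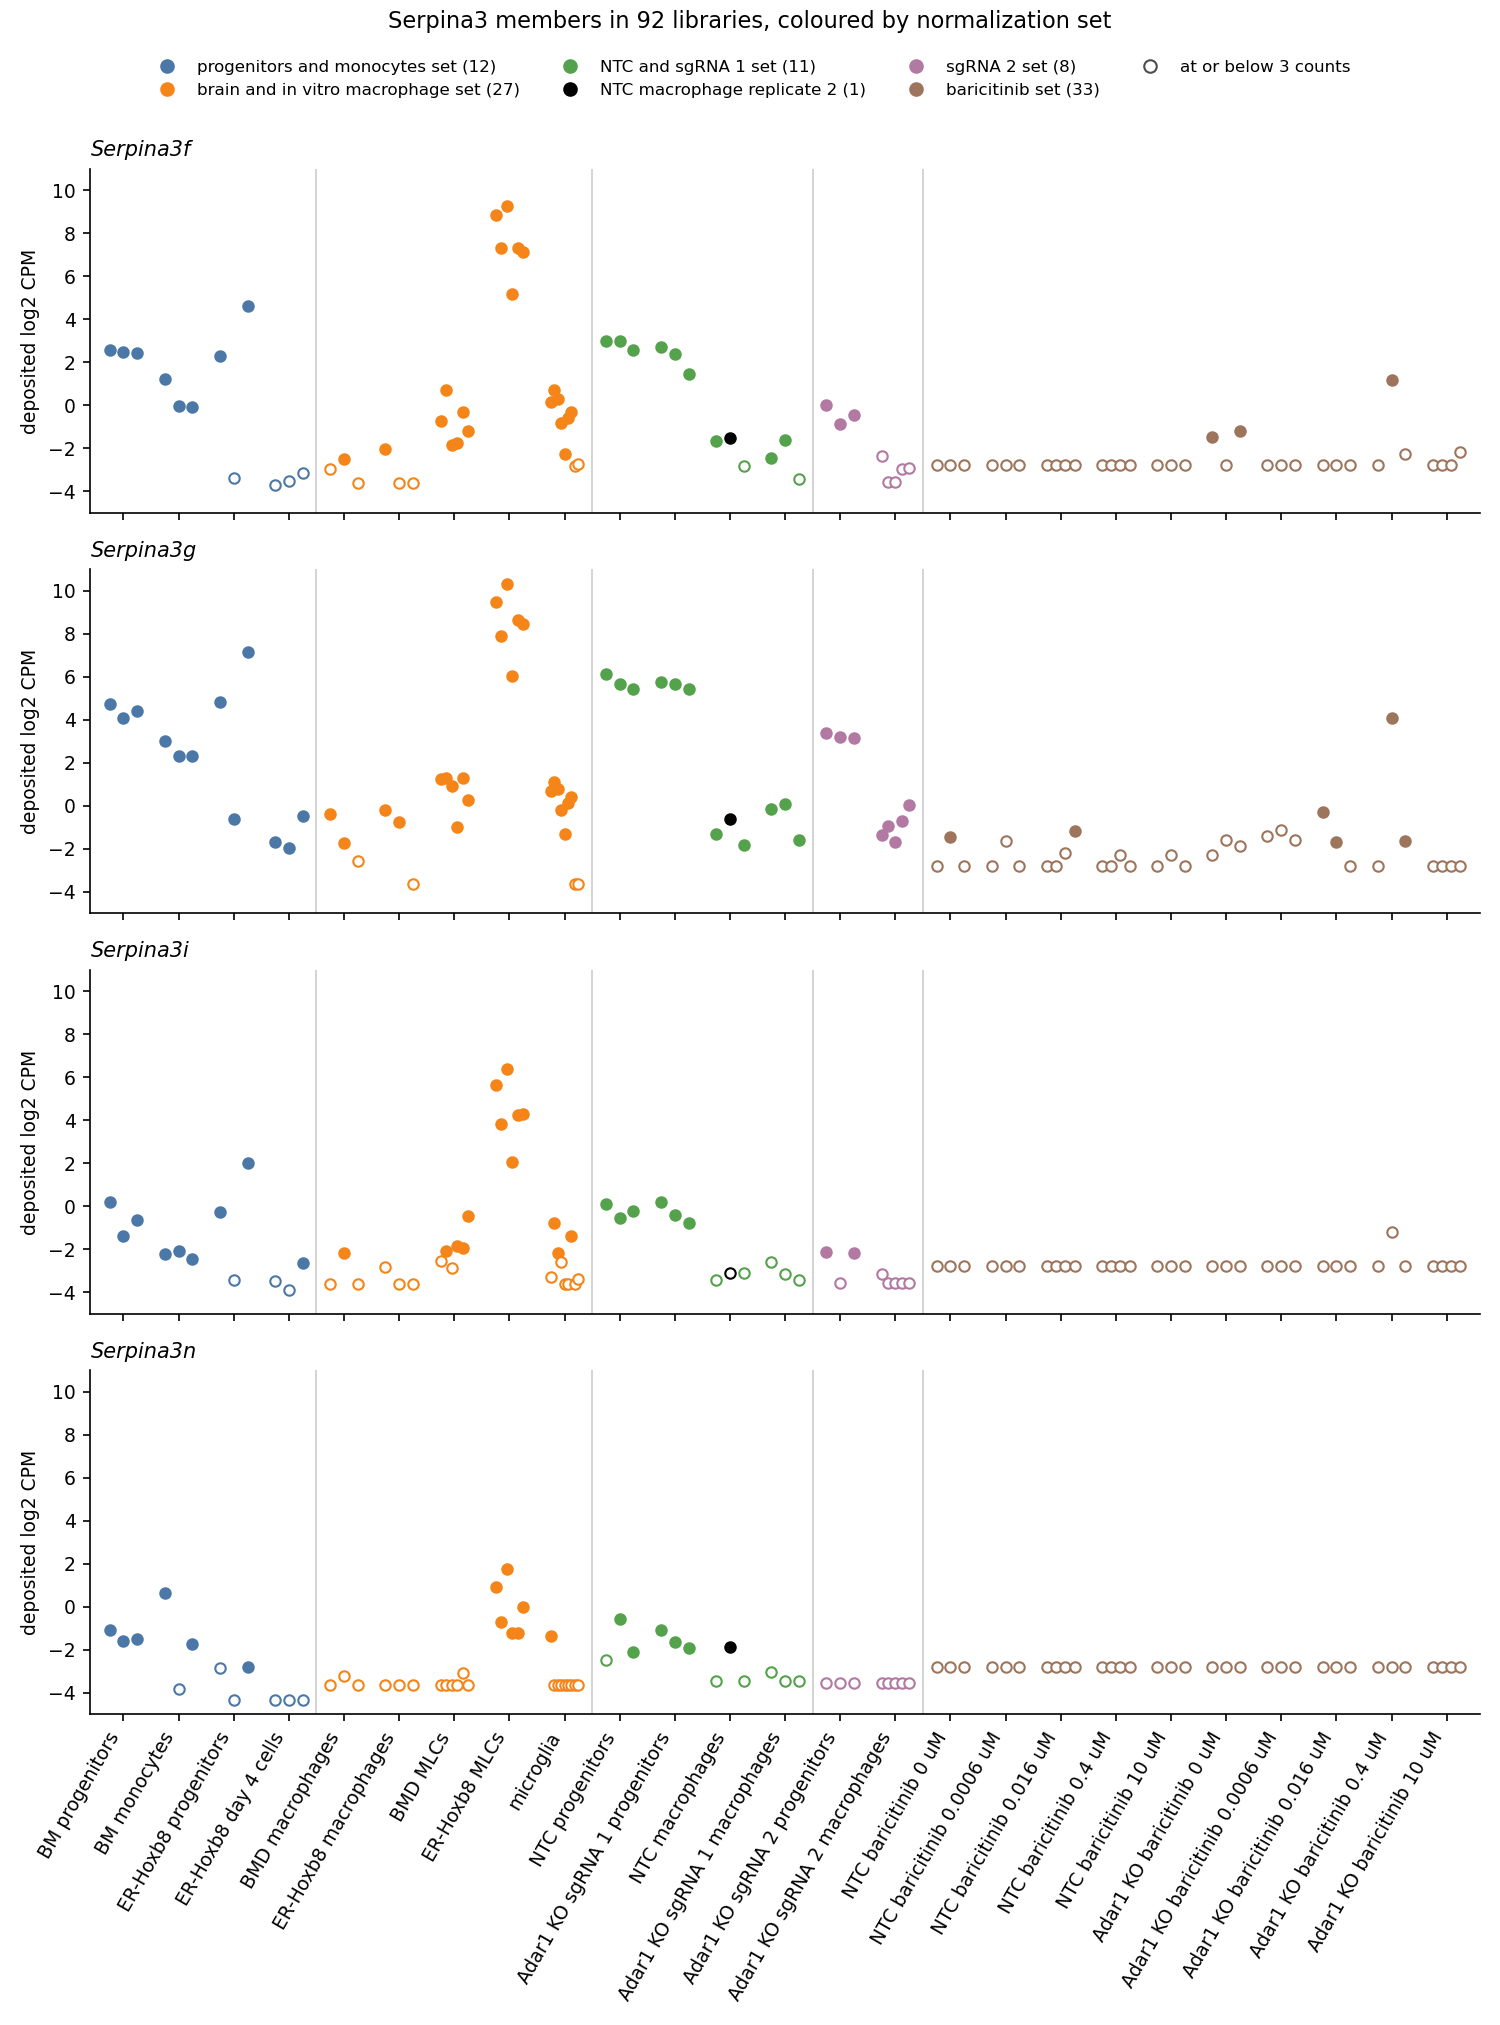
Deposited log2 CPM (vertical axes) of the 4 members in each of 92 libraries (points) of 25 groups (horizontal axis), coloured by normalization set, with open points at or below 3 counts; only points of a colour share a scale. The 6 ER-Hoxb8 MLC libraries are the highest of the set with the brain cells for every member, and progenitors lie above macrophages in the NTC and sgRNA 1 set for Serpina3f and Serpina3g.

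In cells from brain, all 4 members were highest in ER-Hoxb8 MLCs, the group that chose them. Serpina3f had a lowest value of 5.16, a median of 7.33 and a highest value of 9.26 over the 6 ER-Hoxb8 MLC libraries, against -1.83, -0.96 and 0.73 over the 6 BMD MLC libraries and -2.83, -0.57 and 0.73 over the 9 microglia libraries. Its 3 BMD macrophage libraries read -2.97, -2.51 and -3.62, and its 3 ER-Hoxb8 macrophage libraries -2.01, -3.62 and -3.62. No ER-Hoxb8 MLC library overlapped any library of the other 4 groups, while BMD MLCs overlapped microglia and both kinds of macrophage lay at or near the lowest value. By group mean the order of Serpina3f was ER-Hoxb8 MLCs (7.51, SD 1.46), BMD MLCs (-0.85, SD 0.97), microglia (-0.91, SD 1.35), BMD macrophages (-3.03, SD 0.55) and ER-Hoxb8 macrophages (-3.08, SD 0.93). Neighbours from BMD MLCs to microglia and from BMD to ER-Hoxb8 macrophages differed by less than their SDs.

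Serpina3g, the cathepsin inhibitor, ran from 6.03 through a median of 8.55 to 10.33 in ER-Hoxb8 MLCs. In BMD MLCs it ran from -1.0001 through 1.08 to 1.30, and in microglia from the lowest value through 0.13 to 1.135, with replicates 8 and 9 at the lowest value. Macrophages grown in vitro gave -0.38, -1.73 and -2.58 when marrow-derived, and -0.19, -0.73 and -3.62 when made from ER-Hoxb8 cells. Serpina3g was thus high in every ER-Hoxb8 MLC library, low but above 3 counts in all 6 BMD MLC libraries, and scattered down to the lowest value elsewhere. Its group means were 8.47 (SD 1.47) in ER-Hoxb8 MLCs, 0.67 (SD 0.91) in BMD MLCs, -0.61 (SD 1.84) in microglia, -1.51 (SD 1.84) in ER-Hoxb8 macrophages and -1.56 (SD 1.11) in BMD macrophages, and the last 3 differed by less than their SDs.

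Serpina3i ran from 2.07 through 4.27 to 6.39 in ER-Hoxb8 MLCs. It ran from -2.86 through -1.99 to -0.43 in BMD MLCs and from -3.62 through -3.29 to -0.77 in microglia, and of 6 macrophage libraries 4 were at the lowest value. Serpina3n, the secreted inhibitor, ran from -1.20 through -0.36 to 1.77 in ER-Hoxb8 MLCs, was at or below 3 counts in all 6 BMD MLC libraries, and in microglia was above the lowest value in replicate 1 alone, at -1.33. Both genes were thus highest in ER-Hoxb8 MLCs, Serpina3n did not separate the other 4 groups, and the single microglia library with Serpina3n lay beside the 2 lowest ER-Hoxb8 MLC libraries, both at -1.20.

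The differences of means are a description, since this contrast chose the members. ER-Hoxb8 MLCs lay above BMD MLCs by 8.36 for Serpina3f, 7.80 for Serpina3g and 6.36 for Serpina3i on the log2 scale. Serpina3i was at or below 3 counts in 2 of 6 BMD MLC libraries, so its size and rank are approximate. For Serpina3n the ratio of mean CPM, not of log2 means, was at least 10.0-fold, set against 3 counts in the BMD MLC libraries. Against microglia the differences were 8.43 for Serpina3f and 9.09 for Serpina3g. Each of these 2 genes was at or below 3 counts in 2 of 9 microglia libraries, so their sizes and ranks are approximate. No size is given for Serpina3i and Serpina3n, which were at or below 3 counts in 6 and 8 of 9 microglia libraries. Against ER-Hoxb8 macrophages the ratios of mean CPM were at least 300.3-fold for Serpina3i and at least 11.5-fold for Serpina3n, both against 3 counts. Single libraries can lie under these ratios, since Serpina3i ran from 4.12 to 83.8 CPM over the ER-Hoxb8 MLC libraries. No size is given against ER-Hoxb8 macrophages for Serpina3f and Serpina3g, which were at or below 3 counts in 2 and 1 of the 3 libraries of that group. Among the 12518 genes that passed the filter, the difference from BMD MLCs ranked 4 for Serpina3f, 8 for Serpina3g and 21 for Serpina3i, and that from microglia ranked 12 for Serpina3f and 3 for Serpina3g. For all 3 of these members every ER-Hoxb8 MLC library was above every BMD MLC, microglia and ER-Hoxb8 macrophage library, which was also so for 4.15%, 5.40% and 14.4% of the 12518 genes, and nothing is read from this because the choice of members fixes it.

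Within ER-Hoxb8 MLCs the members went up and down together over a wide range. Their summed level was 1247, 411, 1986, 105.5, 575 and 514 CPM in replicates 1 to 6, against 0.835 to 4.09 CPM in BMD MLCs and 0.059 to 4.20 CPM in microglia. Replicate 4 was the lowest and replicate 3 the highest for each of Serpina3f, Serpina3g and Serpina3i. Over the 6 libraries Pearson's r between Serpina3f and Serpina3g was 0.974, and over the 27 libraries of the set it was 0.976, where libraries share groups and shared reads may add to it. The GFPHox series had means of 8.49 for Serpina3f and 9.24 for Serpina3g, and the WTHox series 6.54 and 7.71, and each series taken alone was above BMD MLCs, by 9.34 and 7.38 for Serpina3f and by 8.56 and 7.04 for Serpina3g.

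The other 10 Serpina3 genes were read in the same libraries. Their summed level in ER-Hoxb8 MLCs had a median of 12.1 CPM (2.66 to 48.5), with Serpina3h, a transcribed pseudogene between Serpina3g and Serpina3i, the most abundant at a mean of 7.18 CPM, and Serpina3a, Serpina3b and Serpina3j were at or below 3 counts in all 6 libraries. Serpina3h lay 4.68 above BMD MLCs on the log2 scale. For the pseudogenes Serpina3d-ps and Serpina3e-ps the ratios of mean CPM were at least 32.7-fold and at least 48.1-fold, against 3 counts. These copies, on both sides of Serpina3f and Serpina3g, thus also lay higher in ER-Hoxb8 MLCs than in BMD MLCs, as far as reads can be told apart. In microglia all 10 were at or below 3 counts in every library.

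A list of 24 genes of the interferon-gamma response was read in the same libraries. Its summed level was 26175, 18876, 26664, 8992, 15300 and 21624 CPM in ER-Hoxb8 MLC replicates 1 to 6, against medians of 1224 CPM in BMD MLCs and 1060 CPM in microglia. Of the 24 genes, 22 were above 1 CPM in every ER-Hoxb8 MLC library, the most abundant being the GTPase gene Tgtp2, and replicate 4 was the lowest here as it was for the members. The mean log2 CPM of the list was 8.04 in ER-Hoxb8 MLCs, 2.65 in BMD MLCs, 2.03 in microglia, 0.73 in BMD macrophages and 0.65 in ER-Hoxb8 macrophages. For 20 genes of the type I interferon response it was 6.66, 3.48, 1.58, 2.65 and 2.71. The chemokine Cxcl9 had group means of 9.98, 1.01 and 0.95 in ER-Hoxb8 MLCs, BMD MLCs and microglia and the guanylate-binding protein gene Gbp5 8.86, 1.12 and 0.22.

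A list of 9 interferon and receptor genes held 2 ligands. Ifng averaged 1.32 in ER-Hoxb8 MLCs, from the lowest value to 6.73 between libraries, against -2.82 in BMD MLCs and -2.72 in microglia, and Ifnb1 was at or below 3 counts in 4 of 6 ER-Hoxb8 MLC libraries. The mean over the 9 genes was 4.75, 4.44 and 4.01 in the 3 groups, with the receptor chain Ifngr1 the most abundant in ER-Hoxb8 MLCs. Means over 14 genes of the IL-6 and STAT3 acute phase response were 3.20, 3.22 and 2.66, and over 7 glucocorticoid-response genes 4.32, 5.88 and 3.87, so neither list separated ER-Hoxb8 MLCs from both other groups as the interferon lists did. The cytokine Il6 averaged -2.23, -2.38 and -1.40.

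A list of 14 proteases that A3 serpins and their relatives bind had a mean log2 CPM of 4.08 in ER-Hoxb8 MLCs, 4.20 in BMD MLCs and 3.41 in microglia. Cathepsin S (Ctss) was the most abundant in ER-Hoxb8 MLCs and similar in the 3 groups, at 13.94, 13.39 and 13.62, while Ctsl averaged 5.00, 6.29 and 8.03. Granzyme B (Gzmb) averaged 3.06 in ER-Hoxb8 MLCs, from -1.51 to 8.26 between libraries, against -1.19 and -0.74, and neutrophil elastase (Elane) averaged 1.52, 3.88 and 1.45. Of 13 other serpins of myeloid cells, 7 were above 1 CPM in every ER-Hoxb8 MLC library, with a median summed level of 381 CPM against 563 CPM in BMD MLCs and 1163 CPM in microglia.

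The genes most like each member, by Pearson's r over the 27 libraries with other Serpina3 genes left out, included Cxcl9, Cxcl10, Gbp5 and Tgtp1 of the interferon-gamma list. For Serpina3f they were Cxcl9 (r = 0.984), Gbp5 (0.974), Cfb (0.969), Tgtp1 (0.968) and BC023105 (0.960), and for Serpina3g Cxcl9 (0.955), Cfb (0.954), BC023105 (0.948), Gbp5 (0.947) and Tgtp1 (0.943). For Serpina3i they were Cfb (0.957), Cxcl10 (0.956), Gbp5 (0.948), BC023105 (0.948) and Gm5970 (0.943), and for Serpina3n Cxcl11 (0.909), Cxcl10 (0.909), Psmb9 (0.902) and BC023105 (0.901). The points share group and depth, and much of each r is the distance between the ER-Hoxb8 MLCs and the rest. Over the 21 libraries without them r with the genes named ran from 0.666 (BC023105) to 0.903 (Cxcl9) for Serpina3f, 0.595 (BC023105) to 0.679 (Cxcl9) for Serpina3g, 0.433 (Cxcl10) to 0.647 (Gbp5) for Serpina3i and 0.150 (Psmb9) to 0.264 (BC023105) for Serpina3n. Within the 6 ER-Hoxb8 MLC libraries it ran from 0.463 (BC023105) to 0.960 (Cxcl9) for Serpina3f, 0.548 (BC023105) to 0.966 (Cxcl9) for Serpina3g, 0.243 (Gm5970) to 0.940 (Cxcl10) for Serpina3i and 0.322 (BC023105) to 0.774 (Psmb9) for Serpina3n.

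**Figure D2:**
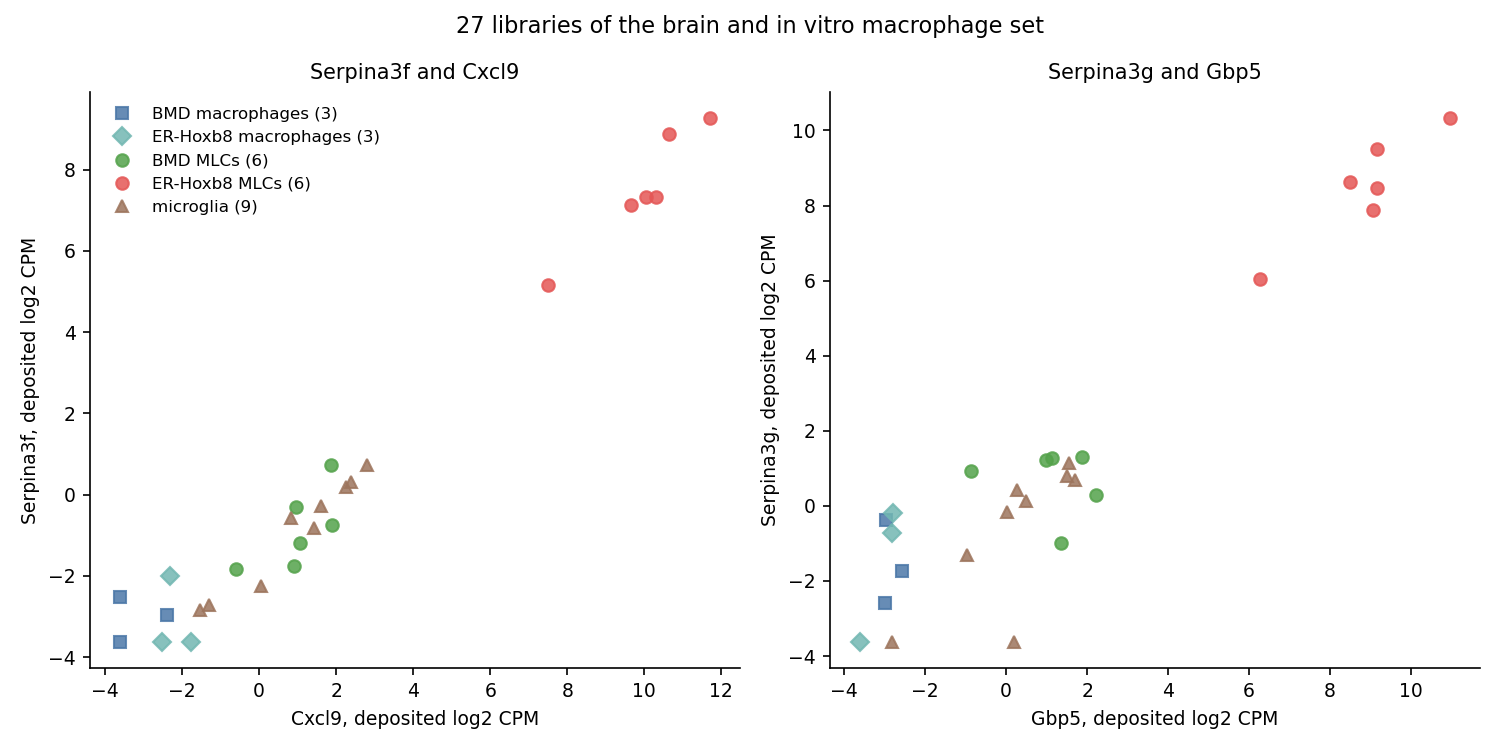
Deposited log2 CPM of Serpina3f against Cxcl9 (left) and of Serpina3g against Gbp5 (right), each point 1 of 27 libraries of the set with the brain cells, marked by group. The 6 ER-Hoxb8 MLC libraries form a separate cloud at high values of both genes, and over the other 21 libraries r was 0.903 on the left and 0.649 on the right.

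The ER-Hoxb8 MLC libraries differed in markers of other cell types. Of 8 microglia markers 7 were above 1 CPM in every library, at levels that varied: P2ry12 read 10.57, 10.57, 7.40, 6.99, 6.59 and 4.76 in replicates 1 to 6, against 14.03 to 14.84 in microglia, and the macrophage gene Csf1r 11.37, 10.23, 10.32, 8.61, 7.97 and 6.08. Both were lower in each WTHox library than in each GFPHox library. The summed level of 7 neutrophil markers was 824, 263, 368, 20355, 44470 and 3614 CPM in replicates 1 to 6, led by Ngp or, in replicate 6, S100a8, with 6 of 7 above 1 CPM in every library. The summed level of 7 T and NK cell markers was 60.7, 59.0, 357, 74.3, 143 and 629 CPM, led by Nkg7, Cd3g or Cd3d, with 4 of 7 above 1 CPM in every library. Neutrophil markers were thus higher in each WTHox library than in each GFPHox library, and T and NK markers were highest in replicates 6 and 3. The members did not follow the series library by library, since GFPHox replicate 2 had a lower summed member level than WTHox replicates 5 and 6. BMD MLCs had medians of 32251 CPM for neutrophil and 57.8 CPM for T and NK markers, and microglia 2037 and 12.9 CPM.

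Summed levels of 6 border macrophage markers ran from 273 to 1261 CPM in ER-Hoxb8 MLCs, led in most libraries by Mrc1, and those of 4 monocyte markers from 571 to 6802 CPM, led by Ccr2 in replicate 6. For 6 astrocyte markers, a cell type in which Serpina3n is known, they ran from 22.4 to 57.1 CPM against a median of 291 CPM in microglia. The astrocyte gene Gfap went the other way, at 3.59 to 3.97 in 5 of 6 ER-Hoxb8 MLC libraries and -3.09 in replicate 4, against 1.37 at most in microglia. Summed levels ran from 102 to 274 CPM for 6 oligodendrocyte markers, 0.259 to 17.5 CPM for 6 neuron markers, 45.8 to 112 CPM for 6 endothelial markers, 8.36 to 167 CPM for 4 B cell markers and 5.19 to 90.8 CPM for 4 progenitor markers, and all 7 macrophage markers in the table were above 1 CPM in every library. No list had a marker at or below 3 counts in all 6 libraries. The part of other cells in the members' levels was not tested, and in bulk RNA fewer cells of a type and less RNA per cell cannot be told apart.

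BMD MLCs were also compared with macrophages grown from the same kind of marrow, apart from the contrast that chose the members. Serpina3g, which passes the filter without the ER-Hoxb8 MLCs, had a log2FC of 2.23 (SE 1.04, limma adjusted p = 0.104) and was not called. Serpina3f and Serpina3i entered through the ER-Hoxb8 MLCs, so their log2FC of 2.19 and 1.18 are a description. All 6 BMD MLC libraries were above all 3 BMD macrophage libraries for Serpina3f, whereas for Serpina3g and Serpina3i the groups overlapped. The share of all genes without overlap was not counted in this contrast. By limma 0 of 3 were called, with 2 at an unadjusted p under 0.05, where 15.9% of all 12518 genes were called, and only Serpina3g bears on that count. In the fit without the ER-Hoxb8 MLCs Serpina3g was again not called (log2FC 2.23, limma adjusted p = 0.0977).

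In the same contrast, 9 of 23 tested genes of the interferon-gamma list were higher and 1 lower (median log2FC 1.16 against -0.01 for all genes). Among them Cxcl9 rose by 4.22 (SE 0.87, limma adjusted p = 0.000733), Gbp5 by 3.96 (SE 0.87, limma adjusted p = 0.00123) and Tgtp1 by 3.97 (SE 0.76, limma adjusted p = 0.000333), and Cd274 fell by 2.40. Cxcl9 was at or below 3 counts in every BMD macrophage library and Gbp5 in replicates 1 and 3. The sizes for Cxcl9 and Gbp5 are therefore not exact. Of 20 type I interferon genes 4 rose and 1 fell (median 1.37). The proteases went both ways, 2 of 13 higher and 3 lower (median 2.31), with Mmp9 up 5.63 and the cathepsins Ctsb, Ctsk and Ctsl down, Ctsb by -3.10. Of 11 myeloid serpins 5 rose and 3 fell (median 0.95), among them Serpinb1a, an inhibitor of neutrophil proteases, by 7.86. The IL-6 list had 4 of 11 higher (median 2.03), led by Lcn2 at 9.82, the glucocorticoid list 2 of 7 higher (1.36) and the interferon and receptor list 2 of 7 higher (1.79). All 7 neutrophil markers were also higher (median 11.77) and 7 of 8 microglia markers (6.18), and their part in the other lists was not tested.

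Against microglia, BMD MLCs had Serpina3g at a log2FC of 1.29 (SE 0.78, limma adjusted p = 0.279), not called. Microglia replicates 8 and 9, the 2 of the YSWT series, had no counts of Serpina3g, and without them its log2FC was 0.43 (limma adjusted p = 0.713). Serpina3f and Serpina3i again entered only through the ER-Hoxb8 MLCs, and their log2FC of 0.07, with a sign that turns under several settings, and 0.77 are a description. The groups overlapped for all 3, and Serpina3i was at or below 3 counts in 6 of 9 microglia libraries. By limma 0 of 3 were called and 0 had an unadjusted p under 0.05, where 10.7% of all genes were called, and only Serpina3g bears on that count. Of the interferon-gamma list 2 of 23 were higher (median 0.64 against 0.06 for all genes) and of the type I list 8 of 20 (median 1.86). The proteases Ctsg, Mmp9 and Prtn3 were higher, 3 of 13, and 3 of 11 serpins were higher and Serpine2 lower, by -5.04. Counts in the remaining lists were 3 higher and 1 lower of 11 for IL-6, 4 higher and 1 lower of 7 for glucocorticoid and 1 higher of 7 for interferons and receptors, beside 6 of 7 neutrophil and 5 of 6 border macrophage markers higher and 5 of 8 microglia markers lower.

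Macrophages grown in vitro from ER-Hoxb8 cells and from marrow were compared as well. Serpina3g had a log2FC of 0.05 (SE 1.20, limma adjusted p = 1), with 2 of 6 libraries at or below 3 counts. Serpina3f was at or below 3 counts in 4 of 6 libraries and Serpina3i in 5 of 6, and both entered only through the ER-Hoxb8 MLCs, so their log2FC of -0.05 and -0.22 say nothing of a difference. By limma 0 of 3 were called and 0 had an unadjusted p under 0.05, against 1.85% of all genes called, and only Serpina3g bears on that count. Of the 23 interferon-gamma genes only Gbp6 was called higher, 1 of 23 (median -0.12 against 0.00 for all genes), and the other lists had 0 called by limma, with 3 of 20 type I interferon, 3 of 13 protease, 5 of 11 serpin, 2 of 11 IL-6, 1 of 7 glucocorticoid and 1 of 7 interferon and receptor genes at an unadjusted p under 0.05.

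Progenitors and monocytes of marrow show the members outside the brain and before differentiation. In BM progenitors Serpina3f read 2.58, 2.48 and 2.44 and Serpina3g 4.74, 4.10 and 4.43, close between replicates. In BM monocytes Serpina3f read 1.25, -0.03 and -0.10 and Serpina3g 3.03, 2.32 and 2.31, below every BM progenitor library. Serpina3i read 0.18, -1.39 and -0.61 in BM progenitors and -2.20, -2.06 and -2.43 in BM monocytes, and Serpina3n -1.05, -1.60 and -1.47 and then 0.63, -3.82 and -1.73. The log2FC of monocytes against progenitors was -2.13 for Serpina3f (SE 1.48, limma adjusted p = 0.361) and -1.87 for Serpina3g (SE 1.43, limma adjusted p = 0.405). By limma 0 of 2 were called and 0 had an unadjusted p under 0.05, where 6.84% of all 12056 genes were called. The groups did not overlap for either gene, but the share of all genes without overlap was not counted, so nothing is read from this. The SD of Serpina3f was 4.12 in the ER-Hoxb8 progenitors that share the fit. With only the 2 marrow groups in the fit Serpina3f was called at the same log2FC (limma adjusted p = 0.00886). Over 9 settings Serpina3f was called in 2 and Serpina3g in 0, so little is read from that call.

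In the marrow contrast 0 of 20 interferon-gamma genes were called by limma (5 at an unadjusted p under 0.05, median -0.07 against -0.09 for all genes) and 1 of 19 type I genes, Mx1 (median 1.28). Proteases had 1 of 14 higher, Ctsc, and serpins 2 of 11, Serpinb8 and Serpinb10. IL-6 genes had 2 of 11 higher, receptors 1 of 7, Ifngr2, and glucocorticoid genes 0 of 7 by limma with 1 at an unadjusted p under 0.05.

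ER-Hoxb8 progenitors spread over most of the range of the set. Serpina3f read 2.29, -3.39 and 4.61 in replicates 1 to 3, Serpina3g 4.84, -0.63 and 7.15, Serpina3i -0.27, -3.42 and 2.00, and Serpina3n -2.84, the lowest value and -2.78. Replicate 2 was the lowest and replicate 3 the highest for Serpina3f, Serpina3g and Serpina3i, which is also the order of Mpo and the reverse of that of Csf1r in these libraries, but not the order of Kit, Cd34 or Emr1. The 4 progenitor markers summed to 54.1, 26.1 and 2363 CPM, led by Kit, Cd34 and Mpo in turn, and the 7 macrophage markers to 2144, 4751 and 458 CPM. Day 4 cells were low throughout, with Serpina3f at -3.71, -3.53 and -3.15, Serpina3g at -1.69, -1.97 and -0.47, Serpina3i at -3.46, -3.90 and -2.65 and Serpina3n at the lowest value in all 3.

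**Figure D3:**
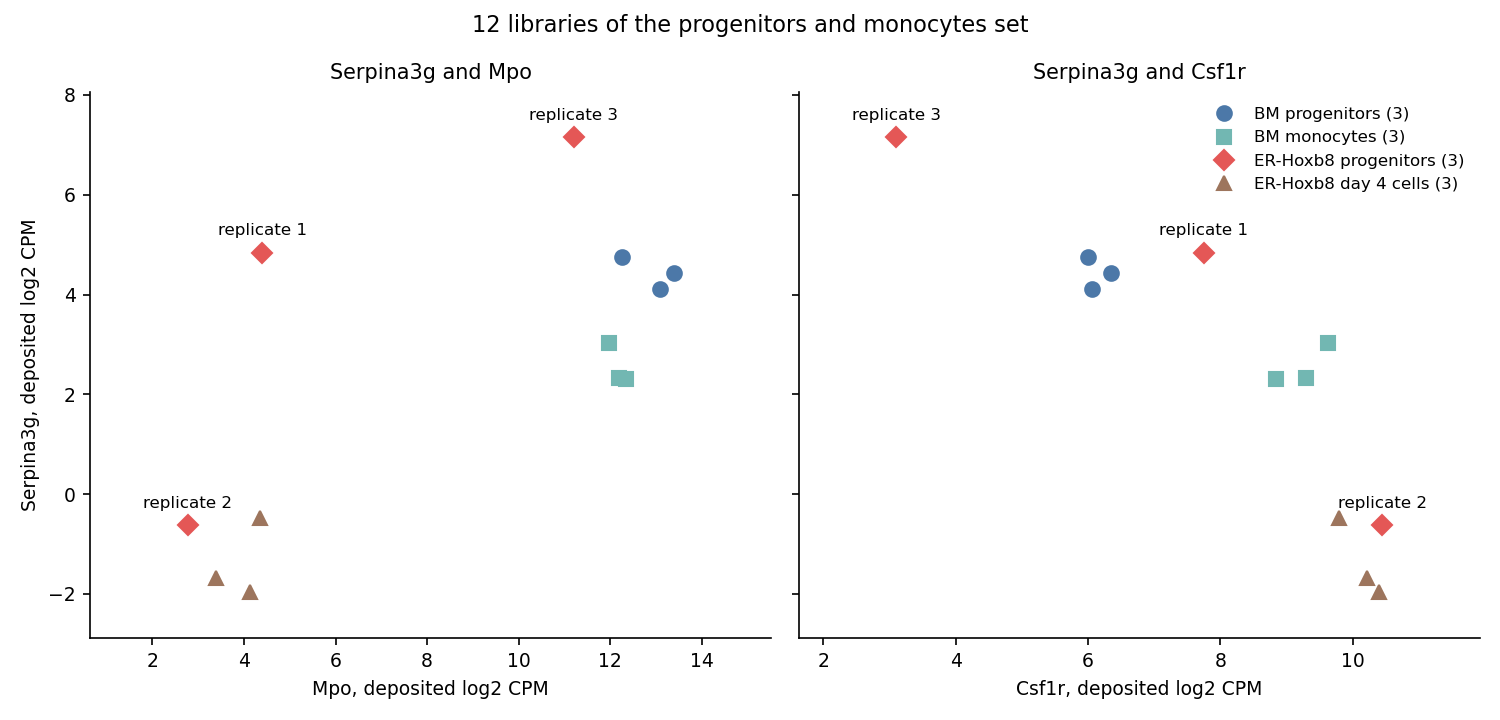
Deposited log2 CPM of Serpina3g (vertical axis) against Mpo (left) and Csf1r (right) in the 12 libraries of marrow progenitors, monocytes, ER-Hoxb8 progenitors and day 4 cells, each point a library. ER-Hoxb8 progenitor replicate 2 lies near the day 4 cells, at Serpina3g -0.63 and Csf1r 10.45, and replicate 3 at Serpina3g 7.15 and Csf1r 3.10. Replicate 2 is within the day 4 range for Serpina3g, above every day 4 library for Csf1r and below every one for Mpo.

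Day 4 cells against ER-Hoxb8 progenitors follow the release from Hoxb8. Serpina3f was at or below 3 counts in all 3 day 4 libraries, so its sizes here are not exact. The log2FC was -4.64 for Serpina3f (SE 1.48, limma adjusted p = 0.497) and -5.16 for Serpina3g (SE 1.43, limma adjusted p = 0.497), and by limma 0 of 2 were called, both at an unadjusted p under 0.05, where 0% of 12056 genes were called and 1129 had an unadjusted p under 0.05. Replicate numbers pair these libraries, both members were lower in day 4 cells in 3 of 3 pairs, and with the number as a block neither was called (limma adjusted p = 0.42 for each). Without ER-Hoxb8 progenitor replicate 2, whose markers are those given above, both members were called. Serpina3f was at -6.92 (limma adjusted p = 0.000166) and Serpina3g at -7.37 (limma adjusted p = 8.41e-05), and 733 of 11980 genes (6.12%) were called. Whether replicate 2 was exchanged with another library or differed in state was not tested. Over the leave-one-out fits the log2FC of Serpina3f ran from -6.92 to -2.92 and that of Serpina3g from -7.37 to -3.48, negative in every one. Of the lists, none had a called gene by limma with all libraries, while 4 of 20 interferon-gamma, 12 of 19 type I interferon, 4 of 14 protease, 5 of 11 serpin, 1 of 11 IL-6, 1 of 7 interferon and receptor and 0 of 7 glucocorticoid genes had an unadjusted p under 0.05. Without replicate 2, 11 type I and 5 interferon-gamma genes were called. The type I list had a median of 2.06 against -0.01 for all genes, and the progenitor markers -1.65.

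ER-Hoxb8 progenitors against BM progenitors gave -1.33 for Serpina3f (SE 1.48, limma adjusted p = 0.561) and -0.64 for Serpina3g (SE 1.43, limma adjusted p = 0.785), with 0 of 2 called by limma and 0 at an unadjusted p under 0.05, where 15.3% of genes were called. Without replicate 2 the signs turned, to 0.95 (limma adjusted p = 0.334) and 1.57 (limma adjusted p = 0.0985). All 4 progenitor markers were lower (median -5.67) and all 7 neutrophil markers (-7.69), beside 3 higher and 6 lower of 20 interferon-gamma genes (-0.90 against -0.08 for all genes), 1 and 2 of 19 type I genes (-0.95; 10 called without replicate 2), 1 and 5 of 14 proteases (-2.55) and 1 and 5 of 11 serpins (-2.35). IL-6 genes had 2 of 11 higher, glucocorticoid genes 1 higher and 1 lower of 7, and interferon and receptor genes 0 of 7 by limma, with 4 at an unadjusted p under 0.05.

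In the cells that carry guides, Adar is the targeted gene and was read first. It was not lower in progenitors labelled Adar1 KO sgRNA 1, at 4.36, 4.23 and 4.24 against 4.20, 3.42 and 4.28 in NTC progenitors (log2FC 0.31, SE 0.19, limma adjusted p = 0.924). In macrophages labelled Adar1 KO sgRNA 1 it read 6.96, 7.15 and 7.01 against 5.73 and 5.67 in NTC macrophage replicates 1 and 3 (log2FC 1.34, SE 0.21, limma adjusted p = 0.000976, under the fold limit), and 5.86 in NTC macrophage replicate 2 of another set. Progenitors labelled sgRNA 2 had 4.35, 4.56 and 4.36 and their macrophages 6.99 to 7.03. The Adar mRNA therefore does not check these labels, which are used as given.

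In these cells Serpina3f and Serpina3g were high in progenitors and low in macrophages. Serpina3f read 2.98, 3.02 and 2.56 in NTC progenitors and -1.66 and -2.84 in NTC macrophages, with -1.50 in the replicate of another set. Serpina3g read 6.15, 5.67 and 5.45 in NTC progenitors and -1.31 and -1.84 in NTC macrophages, with -0.60 in that replicate. Every progenitor library was above every macrophage library, and the gap was wider than the range within any group. The share of all genes without overlap was not counted here, so nothing is read from the lack of overlap. Serpina3f fell by 5.10 (SE 0.56, limma adjusted p = 6.88e-06) and Serpina3g by 7.33 (SE 0.42, limma adjusted p = 3.24e-08), both lower in all macrophage libraries. Serpina3f was at or below 3 counts in NTC macrophage replicate 3, so its size is not exact. Apart from left-out libraries, the log2FC ran over the settings from -5.10 to -2.85 for Serpina3f and from -7.33 to -5.46 for Serpina3g. Both members were called in every setting tried, with no filter as well, but the settings reuse the same libraries. They were above 1 CPM in progenitors only. Both tested members, 2 of 2, were called lower, where 23.5% of 11008 genes were called in either direction. They passed the filter through the progenitors, the group where they are high, so little is read from that count.

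The libraries labelled Adar1 KO sgRNA 1 showed the same shape. Serpina3f read 2.73, 2.40 and 1.46 in progenitors and -2.44, -1.63 and -3.43 in macrophages, and Serpina3g 5.77, 5.65 and 5.46 and then -0.15, 0.11 and -1.58. Again no macrophage library reached any progenitor library, and here too the share of all genes without overlap was not counted. Serpina3f fell by 4.70 (SE 0.50, limma adjusted p = 4.97e-06) and Serpina3g by 6.17 (SE 0.38, limma adjusted p = 4.83e-08). Serpina3f was at the lowest value in macrophage replicate 3, so its size is not exact. Apart from left-out libraries, the log2FC ran over the settings from -4.70 to -2.33 for Serpina3f and from -6.26 to -4.94 for Serpina3g. Both tested members, 2 of 2, were called, where 21.6% of genes were called. Here too they passed the filter through the progenitors, so little is read from that count. Serpina3i read 0.14, -0.52 and -0.23 in NTC progenitors and 0.22, -0.38 and -0.75 in those labelled KO, and from -3.43 to -2.58 in the macrophages of the set. Serpina3n read -2.46, -0.58 and -2.09 in NTC progenitors and -1.09, -1.65 and -1.89 in those labelled KO, and was at or below 3 counts in all 5 macrophage libraries of the set. With no filter on low values Serpina3i was called too, at -3.06 in NTC cells (limma adjusted p = 0.000148) and at -2.74 in cells labelled KO (limma adjusted p = 0.00014). Serpina3i was at or below 3 counts in every macrophage library of the set, so these sizes are not exact.

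Proteases that serpins bind moved in both directions over the same step. In NTC cells 6 of 10 were higher in macrophages and 3 lower (median 5.46 against -0.08 for all genes). The lysosomal cathepsins rose, Ctsb by 5.90 (SE 0.15, limma adjusted p = 9.62e-11) and Ctsl by 5.02 (SE 0.32, limma adjusted p = 8.29e-08), and the granule proteases of immature myeloid cells fell, with log2FC of -13.14 for Ctsg, -12.31 for Elane and -11.92 for Prtn3. Of 8 myeloid serpins 4 rose and 2 fell (median 2.35), Serpinb1a by -10.42. The serpin Serpina3g and the cathepsins it is known to inhibit thus moved in opposite directions, and Serpina3f, Serpina3g and the granule proteases in the same one. All 7 macrophage markers rose (4.54) and 3 of 4 progenitor markers fell (-5.47).

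The interferon lists were read over the same step. In NTC cells 14 of 20 type I interferon genes were higher in macrophages and 0 lower (median 2.91), and of 18 interferon-gamma genes 2 were higher and 5 lower (median -0.48). In cells labelled Adar1 KO sgRNA 1 the counts were 20 of 20 (median 8.42) and 14 higher and 1 lower of 18 (median 3.74), with all-gene medians of -0.08 and -0.06. The remaining lists in NTC cells had 2 higher and 2 lower of 11 for IL-6, 2 and 1 of 5 for glucocorticoid and 0 and 1 of 7 for interferons and receptors, and in cells labelled KO 2 higher of 11, 2 and 1 of 5, and 1 higher of 7. In those cells proteases had 7 higher and 3 lower of 10 and serpins 5 and 2 of 8, and Adar itself rose by 2.76 there.

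Macrophages labelled Adar1 KO were then set against NTC macrophages of the set. Serpina3f had a log2FC of -0.25 (SE 0.56, limma adjusted p = 0.793), with overlapping libraries and a sign that turns with the replicate left out. Serpina3g had a log2FC of 1.03 (SE 0.42, limma adjusted p = 0.106) and was higher than both NTC libraries in 2 of 3 libraries labelled KO. With 1 library left out its log2FC ran from 0.71 to 1.55 and the limma adjusted p from 0.00305 to 0.372, always under the fold limit. By limma 0 of 2 members were called, with 1 at an unadjusted p under 0.05, where 4.02% of genes were called, but neither member was above 1 CPM in any macrophage library and both were tested through the progenitors, so little is read from that count. In the same contrast 19 of 20 type I interferon genes rose (median 4.79 against 0.05 for all genes), Ifit1 by 6.05 (SE 0.43, limma adjusted p = 2.42e-06), and 13 of 18 interferon-gamma genes (median 3.56), Cxcl10 by 3.47 (SE 0.39, limma adjusted p = 6.49e-05). Levels of the members stayed low beside these, with 0.11 the highest value of Serpina3g in a macrophage library of the set, and Cxcl9, the gene most like Serpina3f and Serpina3g in the set with the brain cells, averaged -2.79 in the macrophages labelled KO. Gbp5 averaged 1.35 there.

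Other lists in that contrast had 1 gene called higher each in IL-6 (Lcn2, 1 of 11), serpins (Serpinb9b, 1 of 8) and proteases (Prtn3, 1 of 10), while glucocorticoid and interferon and receptor genes had 0 of 5 and 0 of 7 by limma, with 2 and 5 at an unadjusted p under 0.05. The interaction, which asks whether differentiation differed between the libraries labelled KO and NTC, was 0.41 for Serpina3f (SE 0.75, limma adjusted p = 0.761) and 1.16 for Serpina3g (SE 0.57, limma adjusted p = 0.203, and 0.0118 to 0.421 with 1 library left out), 0 of 2 called by limma and 0 at an unadjusted p under 0.05, where 4.19% of genes were called. Neither member was above 1 CPM in any macrophage library of the set, so little is read from that count either. For the type I list 19 of 20 genes were called higher in the interaction (median 5.00) and for the interferon-gamma list 14 of 18 (median 3.65).

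Between progenitors labelled KO and NTC no member was called. The log2FC was -0.65 for Serpina3f (SE 0.50, limma adjusted p = 0.954) and -0.13 for Serpina3g (SE 0.38, limma adjusted p = 0.998), 0 of 2 called by limma and 0 at an unadjusted p under 0.05, where 0.254% of genes were called. Replicate numbers pair these libraries, and within pairs Serpina3f was lower in the library labelled KO in 3 of 3, while with the number as a block it was not called (log2FC -0.65, limma adjusted p = 0.635). All lists had 0 called by limma, with 5 of 20 type I interferon, 0 of 18 interferon-gamma, 4 of 10 protease, 1 of 8 serpin, 1 of 11 IL-6, 0 of 5 glucocorticoid and 1 of 7 interferon and receptor genes at an unadjusted p under 0.05. The medians of the type I and interferon-gamma lists were both -0.15, against -0.01 for all genes, and the mean of the type I list was 0.33, 0.19 and 0.11 in NTC and 0.05, 0.10 and -0.17 in KO-labelled progenitor replicates 1 to 3, lower in each pair.

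**Figure D4:**
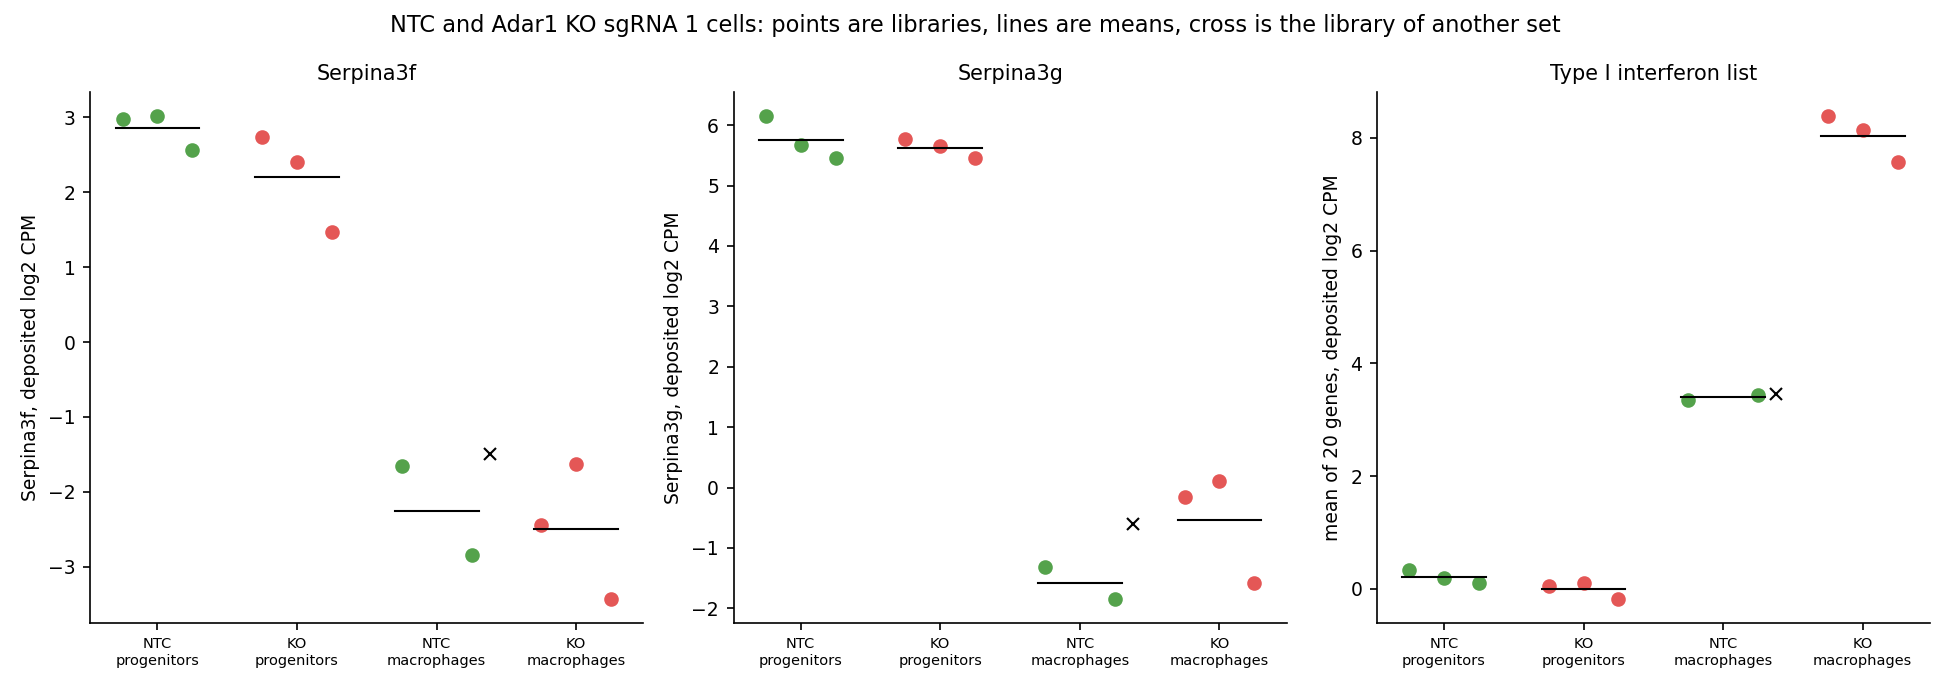
Deposited log2 CPM (vertical axes) of Serpina3f, Serpina3g and the mean of 20 type I interferon genes in NTC and KO-labelled progenitors and macrophages, with points for libraries, lines for means over 2 or 3 libraries and a cross for the NTC macrophage library of another set. The members are high in progenitors of both kinds and low in macrophages, and the interferon list is highest in KO-labelled macrophages.

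With sgRNA 2, Serpina3g read 3.39, 3.21 and 3.18 in progenitors and -1.34, -0.92, -1.68, -0.69 and 0.06 in macrophages. Serpina3f read 0.03, -0.87 and -0.44 and then -2.35, -3.56, -3.56, -2.97 and -2.93, Serpina3i was above 3 counts in 2 progenitor libraries, and Serpina3n was at the lowest value in all 8 libraries. The groups did not overlap for Serpina3f or Serpina3g, but the share of all genes without overlap was not counted, so nothing is read from this. Serpina3g, the single member tested, fell by 4.17 (SE 0.36, limma adjusted p = 1.51e-06), 1 of 1 called, where 19.3% of 10698 genes were called. Serpina3g passed the filter through the progenitors alone, so little is read from that count. With any 1 progenitor library left out it no longer passed. With no filter Serpina3f was called as well, at -2.65 (limma adjusted p = 0.000165). Serpina3f was at or below 3 counts in all 5 macrophage libraries, so this size is not exact. Type I interferon genes were higher in 20 of 20 (median 7.70 against -0.03 for all genes), and interferon-gamma genes in 12 of 19 with 1 lower (median 4.22). Proteases had 6 higher and 3 lower of 10 (3.76), serpins 5 and 2 of 9 (2.70), IL-6 3 higher of 10, glucocorticoid 2 higher of 6, and interferons and receptors 3 higher of 7, Ifnb1, Ifngr2 and Jak2, while Adar rose by 2.59.

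Baricitinib blocks the JAK kinases through which interferon receptors signal, and its libraries hold macrophages only. Adar read 6.37 to 7.42 in libraries labelled KO at 0 uM and 4.69 to 5.12 in NTC at 0 uM. The members were near the lowest value almost throughout. Serpina3f was above the lowest value in 5 of 33 libraries and Serpina3n in none, and NTC libraries had Serpina3f at the lowest value in all 17. Libraries labelled KO at 0 uM had Serpina3f at -1.46, -2.78 and -1.21 and Serpina3g at -2.29, -1.58 and -1.85, and those at 10 uM had Serpina3g at the lowest value in all 4. The exception was replicate 2 labelled KO with 0.4 uM, at 1.18 for Serpina3f and 4.09 for Serpina3g. Its Serpina3i value, -1.20, was at or below 3 counts. That library also had Isg15 at 10.58 against 1.80 and 3.37 in replicates 1 and 3, and a mean over the interferon-gamma list of 5.78 against 0.08 and 0.55.

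Because 0 of 4 members passed the filter, none was tested with baricitinib, and the lists give the setting. Without drug, KO-labelled against NTC macrophages had 3.87% of 11152 genes called, among them 19 of 20 type I interferon genes higher (median 4.45 against -0.02 for all genes) and 12 of 18 interferon-gamma genes higher (median 3.41). Comparing 10 with 0 uM in KO-labelled macrophages, 14.7% of genes were called, with all 20 type I genes lower (median -7.74 against 0.05), 14 of 18 interferon-gamma genes lower (median -4.05) and Adar lower, by -4.61. With no filter no member was called in any comparison of this set by limma, where the smallest adjusted p was 0.0757, for Serpina3f KO-labelled against NTC at 0.4 uM (unadjusted p = 0.0062), a value that rests on replicate 2.

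The likeness rule applied to the 33 libraries rests on that library as well. The genes most like Serpina3g were Mxd1 (r = 0.893, 0.646 over the 32 libraries without it) and Slfn9 (0.887, 0.542). For Serpina3f they were M6pr (0.855, 0.389) and Nfkbia (0.828, 0.195). Serpina3i was above the lowest value in this library alone, and Serpina3n in none, so neither has a likeness to give. Serpina3g was above the lowest value in 16 of the 33.

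Across the study Serpina3f and Serpina3g were higher in progenitors than in macrophages of the NTC and sgRNA lines, although Serpina3f did not pass the filter with sgRNA 2. They were low in nearly all macrophage libraries in vitro, apart from replicate 2 labelled KO with 0.4 uM baricitinib, and highest of the set with the brain cells in ER-Hoxb8 MLCs, where interferon-gamma genes were high too. Whether the level in progenitors exceeds that in ER-Hoxb8 MLCs cannot be read, since they lie in different sets.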

How the data were processed

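RNA of 92 libraries was sequenced and quantified by the authors with kallisto 0.46.0 against GRCm39, and the deposited values are log2 CPM (counts per 1000000) that the authors made by TMM normalization in edgeR. CPM was rebuilt here by subtracting the lowest value of each set, and depth was estimated from the commonest small step between CPM values, which makes it an estimate. The table holds 29956 named genes, and a nameless entry with 0.0023 to 0.0584% of a library was left out of tests. Groups follow the labels. Group means were fitted in each normalization set with limma 3.58.1 (R 4.3.3, moderated with a trend), p was adjusted by Benjamini-Hochberg over all genes tested, and the steps were tested on simulated data first. Other work used Python 3.11.15, numpy 2.4.6, pandas 2.3.3, scipy 1.17.1, matplotlib 3.10.9 and Biopython 1.88.

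Genes named in the text are the members, the other Serpina3 genes, the targeted gene, lists of myeloid serpins, proteases, interferon-gamma, type I interferon, IL-6 and glucocorticoid response genes and of interferons and receptors, cell type markers, and the 5 genes most like each member by Pearson's r. Some of these genes are not reported here. Members and lists were chosen with earlier results of these data known. Replicate numbers were checked for pairing by correlating deviations from group means: they pair day 4 cells with ER-Hoxb8 progenitors (r from 0.226 to 0.427) and KO-labelled with NTC progenitors (0.158 to 0.349), and nowhere else with 3 pairs. The pairing comes from the data, not the labels. Alternatives were another offset, filter, scaling, weights, fold limit, replicate block, fits of the compared groups only, fits without a library series or the ER-Hoxb8 MLCs, and each library left out. Promoters were read on GRCm38.p6, another build than the authors' GRCm39, and no value depends on them.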

Additional observations from a re-analysis of the deposited data

Results flagged for a closer look

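Serpina3n in microglia replicate 1 stood out as a sample far from the others of its group: it was at -1.33, with the other 8 microglia libraries at the lowest value. Of 13 pairs of member and group looked at in this way, 1 passed the limit. Its cause was not tested.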

How the results depend on the processing

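The log2FC of a member kept its direction and side of the threshold in 188 fits with another setting and 173 with a library left out, became called in 5 and 4, and turned in 12 and 20. Serpina3f and Serpina3g stayed called between macrophages and progenitors with NTC and with sgRNA 1 in all of them. Both passed the filter through the progenitors and the fits reuse the same libraries, so this is not separate support. In BM monocytes against BM progenitors 1 member, Serpina3f, was called with a weight for each library (-2.15) and with only the compared groups (-2.13). In day 4 cells against ER-Hoxb8 progenitors 0 to 2 members were called over the left-out libraries, and 0 to 733 genes. In BMD MLCs against BMD macrophages, where Serpina3f passes the filter only through the ER-Hoxb8 MLCs, 1 was called with weights (Serpina3f, 2.09), 0 to 1 over the left-out libraries, and 2 with the replicate block (Serpina3f 2.86, Serpina3g 2.87), although the numbers do not pair these libraries (r from -0.065 to 0.059). With sgRNA 2, 2 were called with no filter, and 0 to 1 over the left-out libraries, because Serpina3g then fails the filter. Where the numbers pair libraries the block changed no call of a member. The differences of ER-Hoxb8 MLCs were not tested, paired or not, since they chose the members, and their direction is fixed by that choice.

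Directions that turned, none of them called, were these. In ER-Hoxb8 against BM progenitors, over left-out libraries, Serpina3f ran from -3.05 to 0.95 and Serpina3g from -2.32 to 1.57. In ER-Hoxb8 against BMD macrophages Serpina3f was at 0.01 as log2(CPM + 1), 0.17 with quantile normalization and -0.58 to 0.22 over left-out libraries, Serpina3g at -0.05 with weights and -0.61 to 1.1, and Serpina3i at 0.03 with weights, 0.15 with quantile normalization and -0.49 to 0.27. In BMD MLCs against microglia Serpina3f was at -0.63 with weights, -0.03 as log2(CPM + 1), -0.46 without the YSWT libraries, -0.43 with quantile normalization, -0.45 with the replicate block and -0.25 to 0.27 over left-out libraries. KO-labelled against NTC progenitors gave Serpina3g -0.28 to 0.07, and macrophages gave Serpina3f 0.13 with weights and -0.84 to 0.34. The interaction gave Serpina3f -0.06 with quantile normalization and -0.18 to 1.0 over left-out libraries. The cause was not tested.

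Counts of all genes called moved by over 1.5 times in BM monocytes against BM progenitors (825, and 1287 with weights, 1299 with quantile normalization, 376 to 630 over left-out libraries), ER-Hoxb8 against BM progenitors (1843, and 1227 at CPM above 5), ER-Hoxb8 against BMD macrophages (232, and 828 with weights, 13 with only the compared groups, 151 to 211), BMD MLCs against microglia (1338, and 842 as log2(CPM + 1)), KO-labelled against NTC progenitors (28, and 18 at CPM above 5, 13 as log2(CPM + 1)), macrophages (442, and 282 as log2(CPM + 1)) and macrophages at 0 uM baricitinib (432, and 250 as log2(CPM + 1)). Counts of list genes called moved in 24 results of other settings and 14 of left-out libraries, among them type I genes in ER-Hoxb8 against BM progenitors (2 to 10 over left-out libraries) and in day 4 cells against ER-Hoxb8 progenitors (0 to 11). A log2FC limit of 1 raised these counts by construction, from 28 to 83 in progenitors for example.

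These results have limits. Replicates are few, ER-Hoxb8 MLC replicates 1 to 3 are the shallowest of their set, ER-Hoxb8 MLC libraries differ in markers of other cells, and levels cannot be compared between sets. The split of reads between Serpina3 copies that share sequence was not redone, since the deposited values do not hold reads. Serpina3n was at or below 3 counts in most groups, so its absence there is not shown. RNA alone was measured, so protein, inhibition of proteases and the cause of any difference were not tested.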
